A study of Rattus norvegicus with 3 samples.

Results

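The podocyte genes described here, 8 in all, were followed across 3 kidney arrays: Nphs1, Podxl, Synpo, Wt1, Cd2ap, Actn4, Ptpro and Tcf21. They were chosen by gene symbol, as non-control probes of the array whose gene name or accession belongs to one of the 8 genes. The 8 genes are represented by 12 probes on 21 spots, out of 17940 named genes and 30365 probes in all. The RNA came from whole kidneys of male spontaneously hypertensive rats (SHRs), which have a Wistar background and are bred for high blood pressure, at an age of 8 to 10 weeks and a weight of 280 to 330 g. The control group was given water, the low-dose group HBMP at 10 mg/kg per day and the high-dose group HBMP at 20 mg/kg per day, all by mouth in about 3 mL for 4 weeks. HBMP stands for a hydrolysate of blue mussel protein. Each group held 10 rats, but RNA of 4 of them was mixed for 1 one-colour array, which leaves 1 array per group. No test could therefore be made, the precision is limited by the number of arrays, and every comparison below describes these 3 pools. The arrays lay side by side on 1 slide, so slide position and dose cannot be told apart.

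Podocytes are the epithelial cells that wrap the capillaries of the glomerulus. Their foot processes interlock, and the gap between neighbouring foot processes is bridged by the slit diaphragm, a cell junction that retains plasma protein during filtration. Nephrin is part of its core, adaptor proteins tie it to the actin cytoskeleton, and a small set of transcription factors maintains the cell. Loss or flattening of foot processes is known to let protein into the urine, and long-lasting hypertension is known to strain the glomerulus. Podocytes are a small share of the cells of a kidney. Nphs1 is a close marker of them in the kidney, whereas Actn4 and Cd2ap are known in many cell types, Podxl also in vascular endothelium, Wt1 also in mesothelium and Tcf21 also in stromal cells.

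The regions upstream of 3 genes are shown, of Nphs1 and Tcf21 as the lowest and highest of the 8 genes at the low dose, and of Cd2ap as the window in which a searched motif was found. Of the 8 genes, 7 were matched by symbol to RefSeq's promoter table of the rat build GRCr8, and Actn4 was not matched. Each line gives the 250 bases before the annotated start, which lie at chr1:94848011-94848260 on the plus strand for Nphs1, chr9:25583725-25583974 on the plus strand for Cd2ap and chr1:24520249-24520498 on the plus strand for Tcf21. Capitals mark matches to the motifs described after the lines.
Nphs1: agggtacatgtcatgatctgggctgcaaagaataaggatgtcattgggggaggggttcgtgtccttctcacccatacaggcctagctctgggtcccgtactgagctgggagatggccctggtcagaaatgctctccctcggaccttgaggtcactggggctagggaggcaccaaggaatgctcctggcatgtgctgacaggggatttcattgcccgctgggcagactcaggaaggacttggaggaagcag
Cd2ap: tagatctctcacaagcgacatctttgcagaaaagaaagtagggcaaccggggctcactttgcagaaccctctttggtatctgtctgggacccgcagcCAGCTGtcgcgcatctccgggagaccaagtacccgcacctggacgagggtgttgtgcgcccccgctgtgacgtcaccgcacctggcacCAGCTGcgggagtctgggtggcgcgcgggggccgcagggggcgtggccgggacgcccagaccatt
Tcf21: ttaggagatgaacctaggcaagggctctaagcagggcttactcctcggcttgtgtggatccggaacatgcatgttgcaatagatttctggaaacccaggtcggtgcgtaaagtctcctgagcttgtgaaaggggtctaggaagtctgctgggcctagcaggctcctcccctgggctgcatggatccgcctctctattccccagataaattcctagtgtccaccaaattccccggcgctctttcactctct
Both strands of these windows were searched for GCGTGGG, a core bound by WT1, for its variant GTGGGAG, for TAATTA, a homeodomain core of the kind LMX1B binds, and for CAGCTG, an E-box of the kind TCF21 binds. None of the motifs overlaps another in the matches found. CAGCTG was found in 1 of the 7 windows, that of Cd2ap, 153 to 148 and 65 to 60 bases before the start, and 12% of all 33469 windows of this length hold it, so the count among the 7 is near that share. The Nphs1 and Tcf21 windows held none of the 4 motifs. The first WT1 core, its variant and the homeodomain core were in 0 of the 7 windows, and in 3.68%, 7.51% and 4.86% of all windows. A match describes letters only. In the RefSeq table Nphs1 lies next to Kirrel2, the gene of a nephrin relative that was not analysed here.

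Every value below is a spot's brightness after background subtraction, scaled to a common 75th percentile over the 3 arrays, and each gene is given by 1 probe. A probe was taken as above background where 50% or more of its spots reached a signal-to-noise ratio of 3. All 8 genes passed this on all 3 arrays, no spot of them was saturated and none was left out. Over all probes, 50.4% to 54.7% stood above background on an array. Podxl was printed on 10 spots, and the chosen probes of the other 7 genes on 1 spot each. For these the spread was taken from the 50 repeat-printed probes closest in brightness, as the median SD of the log2 difference between spots, and for Podxl from its own spots, as their SD over the root of 10. That spread is technical and says nothing of how animals differ. Brightness also depends on the probe, so levels are compared between arrays and not between genes.

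**Figure D1:**
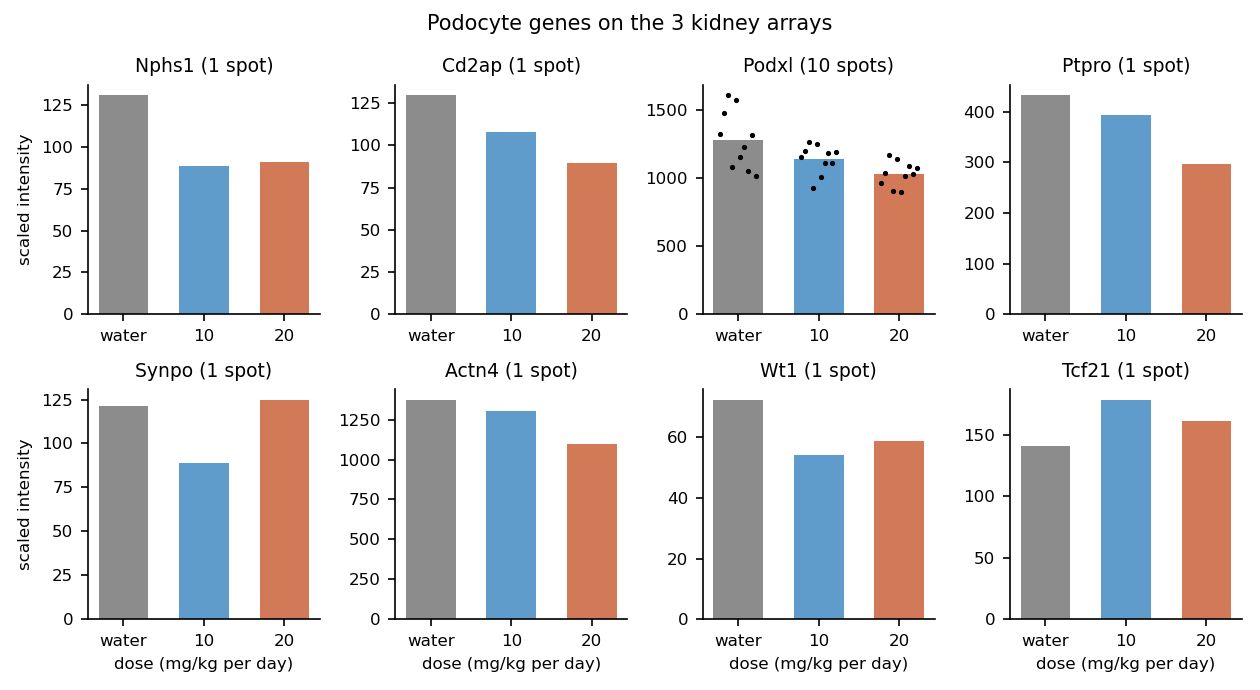
Scaled intensity (linear, from 0) of the 8 genes by dose, with water at the left and the doses 10 and 20 mg/kg per day to its right; bars are the chosen probe, and dots are the 10 spots of Podxl. 6 genes were brightest with water, Synpo read 125 at the high dose and 122 with water, and Tcf21 was dimmest with water.

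None of the 8 genes differed by 1.5-fold in any of the 3 comparisons. Of the 9734 genes measured at the low dose and in control, 6.72% were higher by 1.5-fold and 4.54% lower, with 2.5% and 0.668% past 2-fold. Of the 9891 genes measured at the high dose and in control, 3.72% were higher by 1.5-fold and 3.79% lower, with 0.849% and 0.152% past 2-fold. Between the doses, high over low, 4.03% of 10137 genes were higher by 1.5-fold and 5.52% lower, with 0.464% and 1.48% past 2-fold. Within that range 7 of the 8 genes were below control at the low dose and 6 at the high dose, while 64.3% and 56.4% of all genes were. The median log2 difference of the 8 genes was -0.22 at the low dose and -0.32 at the high dose, beside medians over all genes of -0.11 and -0.04. Between the doses the median was -0.14, high dose against low dose, beside 0.04 over all genes. In whole-kidney RNA, fewer podocytes and less RNA per podocyte cannot be told apart.

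Nphs1 encodes nephrin, the adhesion protein that spans the slit between foot processes. Its scaled intensity was 131 with water, 88.8 at the low dose and 90.7 at the high dose. Both treated arrays lay well below control and close to each other. Nphs1 was 0.679 times control at the low dose (log2 difference -0.56) and 0.694 times control at the high dose (-0.53), against a spread between repeat spots of 0.13 and 0.12. The doses differed by 0.03, less than the spread of 0.10. A different probe of Nphs1 read 61.9 with water, 46.3 at the low dose and 44 at the high dose. It gave -0.42 and -0.49 against control, so both probes placed nephrin lower at both doses. Its low-dose difference depended on the processing: it was -0.63 in the authors' deposited table and -0.66 from pixel medians, both past 1.5-fold, but -0.45 with a correction for position and -0.34 under normexp background correction. At the low dose 5.34% of all genes lay below Nphs1, and at the high dose 5.58%.

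Cd2ap encodes an adaptor that links nephrin to actin and to signalling in the foot process, and it is also present in many other cells. It read 130 with water, 108 at the low dose and 89.8 at the high dose. The levels were ordered by dose on these arrays. The log2 difference from control was -0.26 at the low dose and -0.53 at the high dose, with spreads of 0.12 and 0.11. High dose against low dose it was -0.27, with a spread of 0.10, but -0.16 in the authors' deposited table and -0.12 from pixel medians.

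Podxl encodes podocalyxin, the heavily charged surface protein that keeps foot processes apart. Over its 10 spots the lowest, median and highest readings were 1015, 1271 and 1608 with water, 926, 1171 and 1266 at the low dose, and 896, 1033 and 1172 at the high dose. The mean over spots stood at -0.17 on the log2 scale at the low dose and -0.31 at the high dose, against control. The 3 sets of spots overlapped, and the control spots were the most scattered. Taken spot by spot, which removes what a position shares between arrays, the mean log2 difference was -0.16 ± 0.20 at the low dose and -0.30 ± 0.21 at the high dose against control (SD over 10 spots of 1 array pair). In each case 8 of 10 spots were lower than control. The other 2 spots, which were read higher at both doses, are the 2 that the scanner software did not flag as good on the control array. Over the 8 spots flagged good on every array, a choice made after the values were seen, the means were -0.25 ± 0.07 and -0.39 ± 0.10 (SD). High dose against low dose the mean was -0.14 ± 0.06 (SD), and all 10 spots were lower at the high dose. In the authors' deposited table the Podxl difference was 0.03 at the low dose and -0.16 at the high dose, so its low-dose direction depends on the processing.

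**Figure D2:**
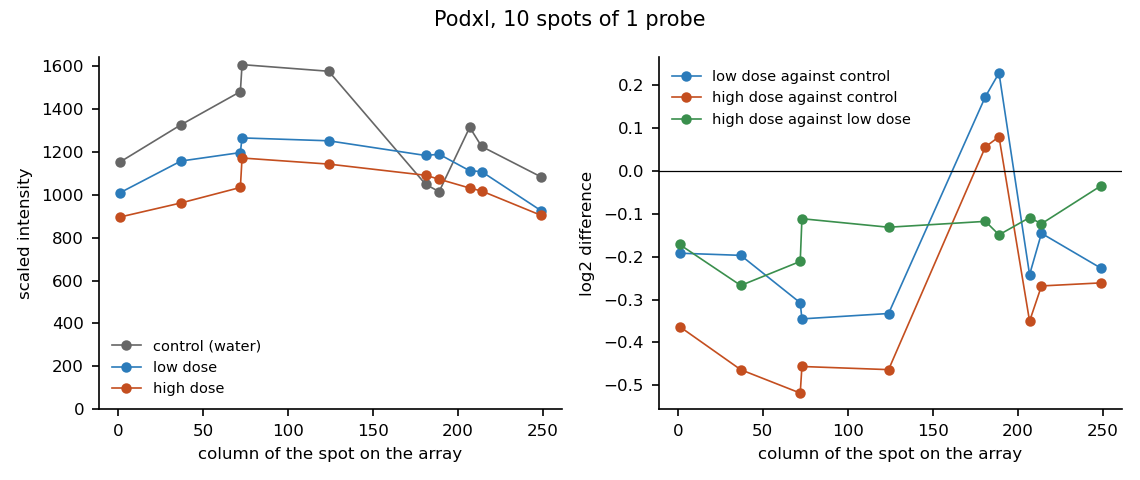
The 10 Podxl spots by their column on the array: left, scaled intensity on each array (linear, from 0); right, log2 difference of each spot in the 3 comparisons. The control line dips below both treated lines at 2 spots, and all points of the comparison between the doses lie below 0.

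Ptpro encodes GLEPP1, a receptor tyrosine phosphatase on the apical side of foot processes. It read 432 with water, 394 at the low dose and 297 at the high dose, so by this probe the high-dose array stood apart. The log2 difference was -0.14 at the low dose, near the spread of 0.11, and -0.54 at the high dose, with a spread of 0.10. Of all genes, 4.95% lay below Ptpro at the high dose. A different probe read 119, 94.5 and 80.6 in the same order of arrays and gave -0.34 and -0.56 against control. High dose against low dose the chosen probe gave -0.41 and the other -0.23. By the other probe the low-dose array was thus nearer to the high-dose array than to control.

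Synpo encodes synaptopodin, an actin-binding protein of foot processes that is also found in neurons. It read 122 with water, 88.8 at the low dose and 125 at the high dose. The low-dose array was thus the low one, and the high-dose and control arrays differed by less than the spread between spots (0.04 against 0.11). The log2 difference was -0.45 at the low dose against control. High dose against low dose it was 0.49, the highest of the 8 genes, and 93.2% of all genes lay below it. With signal corrected for position on the array the 2 values were -0.32 and 0.32.

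Actn4 encodes alpha-actinin-4, which crosslinks actin in foot processes and in most other cells. It read 1372 with water, 1307 at the low dose and 1097 at the high dose. Control and the low dose differed by -0.07, less than the spread of 0.10, while the high dose stood lower, by -0.32 against control and -0.25 against the low dose.

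Wt1 and Tcf21 encode transcription factors of the podocyte. WT1 is a zinc finger protein needed for the podocyte's identity, and it read 72.2 with water, 54.0 at the low dose and 58.6 at the high dose. It was lower than control at both doses, with log2 differences of -0.42 and -0.30 against spreads of 0.18 and 0.17, and the doses did not differ beyond the spread (0.12). The other 2 Wt1 probes were not above background on any array. TCF21 is a basic helix-loop-helix factor, and it was the gene of the 8 that stood above control at both doses beyond the spread. It read 141 with water, 178 at the low dose and 161 at the high dose. Its log2 differences were 0.34 and 0.19 against a spread of 0.11 in each case, and -0.15 between the doses.

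**Figure D3:**
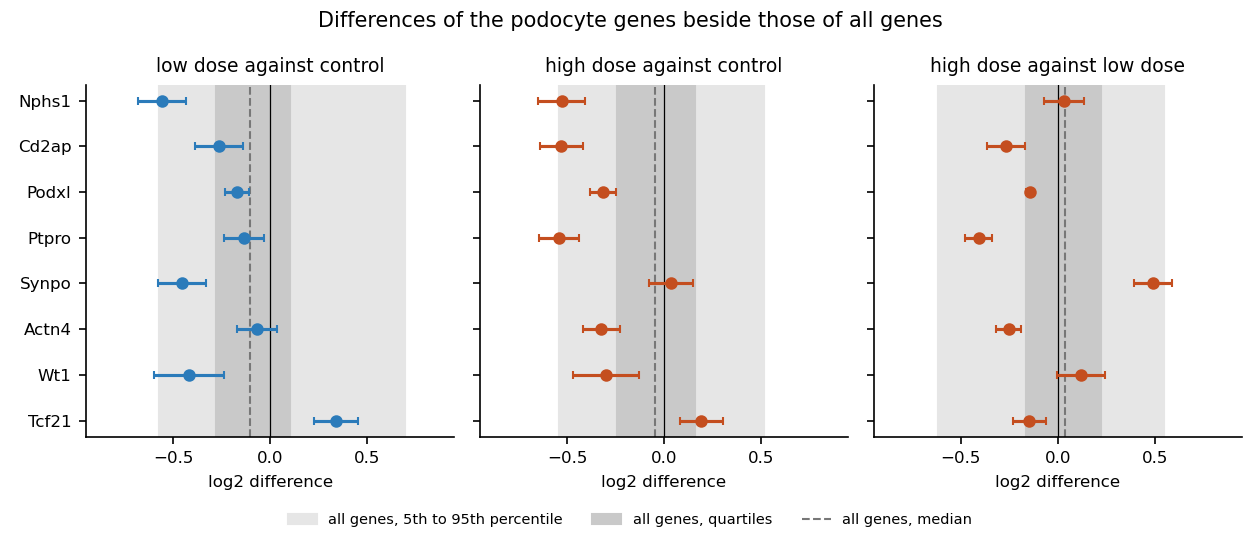
Log2 difference of each of the 8 genes in the 3 comparisons; bars are 1 SD between repeat spots (for Podxl its own SD over the root of 10), the shaded bands hold the middle 50% and 90% of all genes and the dashed line is the median of all genes. At the high dose Nphs1, Cd2ap and Ptpro lie at -0.53, -0.53 and -0.54 near the lower edge of the wide band, and Tcf21 lies at 0.19.

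Of the 8 genes, 7 differed from control by more than the spread between spots at the low dose, 6 of them lower and 1 higher. Of all genes, 48.2% were lower and 24.0% higher by the same rule. The counts were equal at the high dose, 7 genes with 6 lower and 1 higher, where 39.9% of all genes were lower and 28.2% higher. Between the doses 5 of the 8 were lower and 1 higher, beside 33.9% and 42.7% of all genes. The rule is thus passed by most genes on these arrays. The genes within the spread against control were Actn4 at the low dose and Synpo at the high dose. All 8 genes at the low dose and 7 at the high dose lay between the 5th and 95th percentile of all genes (-0.57 to 0.70 and -0.54 to 0.52). The exception was Ptpro at the high dose. Both doses were set against the same control array, so the values at the 2 doses are not independent of each other.

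**Figure D4:**
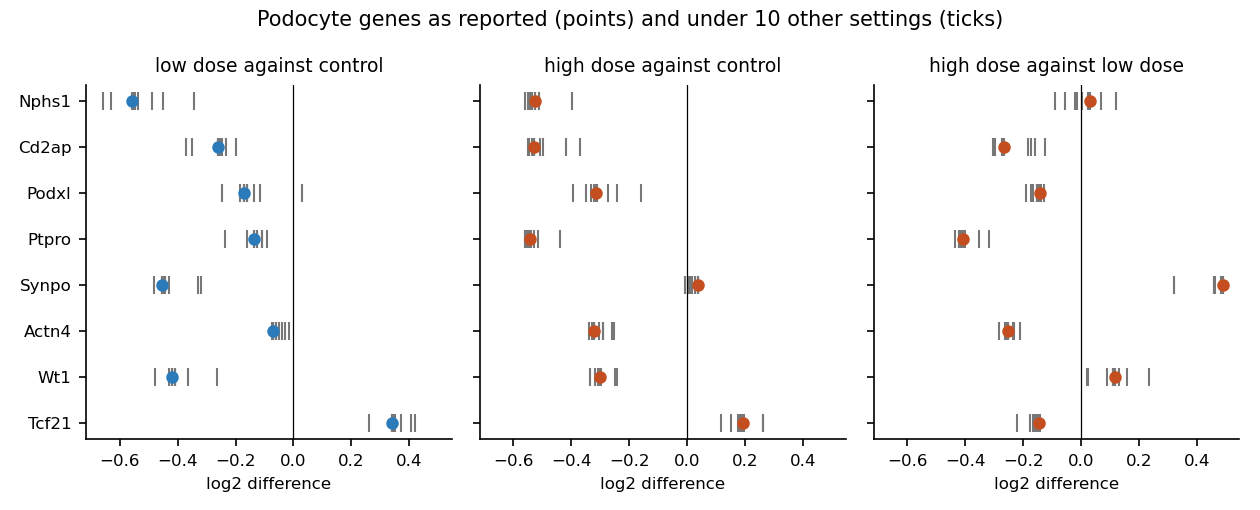
Log2 difference of each of the 8 genes as reported (points) and under 10 other ways of processing the same arrays (ticks), by comparison. Under all of these settings the genes other than Podxl and Tcf21 lie below 0 at the low dose, the genes other than Synpo and Tcf21 below 0 at the high dose, and Tcf21 above 0 at both doses.

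The genes whose pattern was most like that of Nphs1, by the distance between their 2 log2 differences from control over the 3 arrays, were Mfap3l (-0.55 and -0.53, low and high dose), Atp11a (-0.55 and -0.52) and Dqx1 (-0.58 and -0.54). With so few arrays the likeness is coarse, and 32 of 9641 genes lay within a distance of 0.05. For the median of the 8 genes the nearest included Smn1 and Wdr24, and 129 genes lay within that distance.

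Other podocyte and basement membrane genes were taken as 5 lists of 89 genes, of which 79 were on the array. At the low dose 10 of 59 measured genes were at least 1.5-fold higher and 4 lower, beside 6.72% and 4.54% of all genes. The high dose had 3 of 59 higher and 1 lower by that fold, beside 3.72% and 3.79%, and between the doses 5 of 62 were higher and 13 lower, beside 4.03% and 5.52%.

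Genes of the slit diaphragm and its junctions were split at the low dose. Of 18 listed genes 14 were above background on all arrays, and Crb2, Kirrel3 and Magi2 on none. At the low dose 7 were above and 7 below control, where 64.3% of all genes were below. The median was 0.02, beside -0.11 over all genes. Trpc6, a calcium channel of the slit, was highest at 0.58, and Magi1, a junction scaffold, was lowest at -0.76. Each was read from 1 dim spot, Trpc6 at 25.2 with water and 37.6 at the low dose, and Magi1 at 42.4 and 25.1. The high dose had 4 above and 10 below control, where 56.4% of all genes were below. The median at the high dose was -0.08, beside -0.04 over all genes. There Kirrel1, the nephrin relative Neph1, was highest at 0.90 and Fat1, a large cadherin, lowest at -0.56. Kirrel1 read 27.5 with water, 27.0 at the low and 51.3 at the high dose, so the high-dose array stood apart at a dim level. Between the doses Kirrel1 was again highest, at 0.93, and the polarity protein gene Pard3 lowest, at -0.66 over 10 spots.

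Genes of the podocyte cytoskeleton were above control more often than below, 10 against 5 of 15 at each dose, with medians of 0.07 at the low and 0.11 at the high dose. Of all genes, 35.6% were above control at the low dose and 43.6% at the high dose, with medians of -0.11 and -0.04. The intermediate filament gene Vim stood at 1.18 over 10 spots and Flna, an actin crosslinker, at 1.09 at the low dose. These were the 2 list members past 2-fold, a fold that 2.5% of all genes passed upward in that comparison. Vim is also a general gene of mesenchymal cells. Nherf1, a scaffold protein at the apical membrane, was lowest at -0.66. Cfl1, the actin-severing cofilin, was highest at the high dose, at 0.63, and Anln, which organises actin during cell division, lowest at -0.87. Between the doses Nherf1 was highest at 0.73 and Anln lowest, just within 2-fold, at -0.998.

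Of the 13 other podocyte transcription factors listed, 11 were on the array and 4 were above background on all arrays, Foxc1, Foxc2, Lmx1b and Zhx2. Their differences ran from -0.29 for Foxc1 to 0.23 for Foxc2 at the low dose, and at the high dose from -0.11 for Foxc2 to 0.28 for Foxc1. Between the doses Foxc1 was highest at 0.57 over 10 spots, and Foxc2 lowest at -0.34.

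Genes for surface, adhesion and secreted proteins of the podocyte read below control more often than above it at the high dose. There 11 of 16 were below control, beside 56.4% of all genes, and the median was -0.30, beside -0.04 over all genes. Bmp7, a growth factor also made by tubules, was lowest at -0.55, and the tetraspanin gene Cd151 highest at 0.70. At the low dose 9 of 16 were below control, beside 64.3% of all genes, and the median was -0.07, beside -0.11 over all genes. Cdkn1c, the cell cycle inhibitor p57 of mature podocytes, was highest there. It read 972 with water, 2643 at the low and 1024 at the high dose, so the low-dose array alone stood out, by 1.44 against control. High dose against low dose it was lowest of the list at -1.37. Mme, the peptidase neprilysin, which the proximal tubule also makes, was lowest at the low dose with -1.10, where 0.668% of all genes were at least 2-fold lower, and highest between the doses with 0.64.

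Genes of the glomerular basement membrane, the matrix under the foot processes, were above control at the low dose in 10 of 10 measured cases. The median was 0.55, beside -0.11 over all genes and 35.6% of them above control, and 5 of the 10 were at least 1.5-fold higher. Col4a2, a type IV collagen chain, was highest at 0.98 and Col4a4, a chain of the mature glomerular network, lowest at 0.05. Col4a3, also a type IV collagen chain, is not among the 10, since the control array failed the signal-to-noise rule for it. Its readings went the other way, at 56.2 with water, 50.2 at the low dose and 39.4 at the high dose. Against control, 5 stood above and 5 below at the high dose, where 43.6% of all genes were above. The median was 0.01, beside -0.04 over all genes, and of a sign that other processing turned. Values ran from -0.58 for Col4a1 to 0.33 for Col4a2. High dose against low dose 10 of 11 were lower, beside 44.9% of all genes. The median was -0.61, beside 0.04 over all genes, and Col4a1 was lowest at -1.45. Col4a1 read 1375 with water, 2507 at the low and 921 at the high dose. Col4a4 was the gene that stood higher between the doses, at 0.12. Col4a1 and Col4a2 are also made by vessels and tubules.

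**Figure D5:**
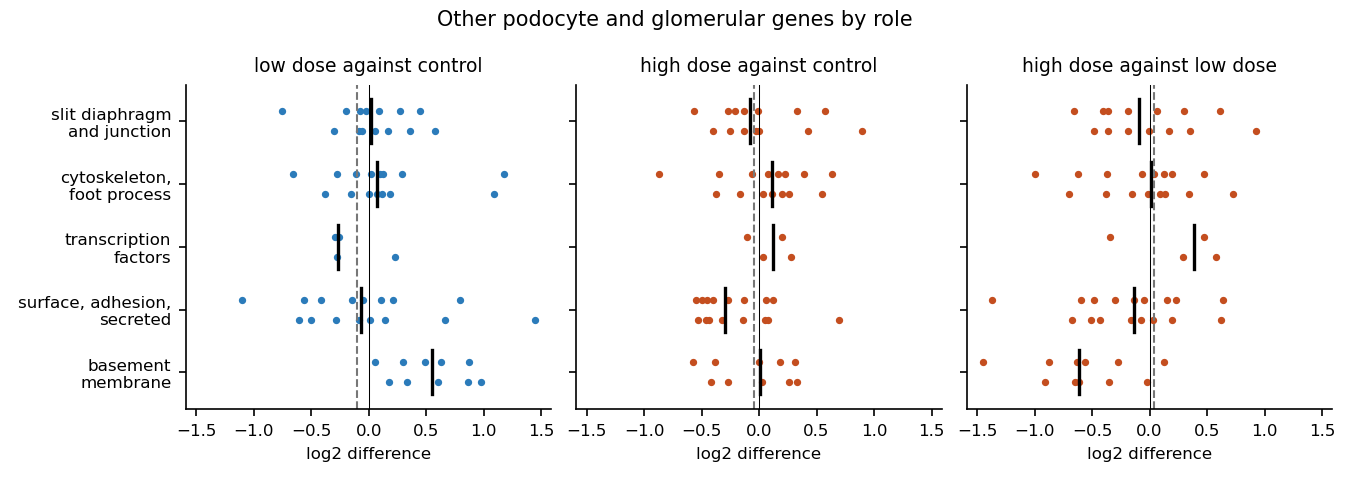
Log2 difference of each measured gene in 5 lists of podocyte and glomerular genes, by comparison; the black bar is the list's median and the dashed line the median over all genes. The basement membrane genes lie above 0 at the low dose (median 0.55) and mostly below 0 between the doses (median -0.61).

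Marker lists of other cells also differed between these arrays. All 12 proximal tubule markers were above background, with 11 below control at the low dose (median -0.40) and 10 at the high dose (median -0.49), beside 64.3% and 56.4% of all genes. Their summed intensity was 160694 with water, 144376 at the low dose and 136203 at the high dose, while the 8 podocyte genes summed to 3682, 3359 and 2951 in that order. Most of the latter sum came from Actn4 (1372 with water) and Podxl (1283), which are also known in other cells.

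Interstitial fibroblast markers were above control in 7 of 7 measured cases at both doses, with medians of 1.10 and 0.42, on the same arrays on which Tcf21 stood higher. Of all genes, 35.6% and 43.6% were above control. They summed to 3035 with water, 8558 at the low dose and 4098 at the high dose, and Lum was above background nowhere. Their largest low-dose differences were 3.21 for Col1a1, 2.15 for Col3a1, 2.11 for Mfap5 and 1.10 for Dcn, all genes of the extracellular matrix. At the high dose Mfap5 stood at 1.96. Adipocyte markers were above control in 4 of 4 measured cases, with medians of 1.85 and 1.98, and summed to 472 with water, 2224 at the low dose and 1871 at the high dose. Fabp4 stood at 4.02 at the low and 3.2 at the high dose and Adipoq at 3.22 and 3.03, while Lep and Plin1 were above background nowhere.

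Mesothelial markers had 3 of 6 members above background on all arrays, which summed to 428 with water, 414 at the low dose and 431 at the high dose, with Upk3b and Lrrn4 above background nowhere. Msln, the mesothelin gene, was above background on both treated arrays and not with water, and so is not in that sum. It was at least 11.4-fold higher at the low dose and at least 2.97-fold higher at the high dose than with water, taking its treated reading over the higher of its own water reading and the lowest water reading above background. Wt1, also known in mesothelium, was lower on both treated arrays.

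Mesangial and pericyte markers had medians of 0.49 and -0.01 over 9 genes at the low and high dose. Among them Serpine2 stood at 1.79 and Tagln at 1.5 at the low dose, and Tagln at 1.14 at the high dose. Endothelial markers, of cells in which Podxl is also known, had medians of 0.17 over 8 genes and -0.10 over 9, and parietal epithelial markers 0.24 and 0.08 over 8, with Krt18 at 1.48 at the low dose. Macrophage markers had medians of 0.94 and 0.05 over 7 genes, with C1qc, C1qa and C1qb at 1.26, 1.23 and 1.18 at the low dose. Medians were -0.39 and 0.08 over 5 markers of the thick ascending limb and distal tubule, -0.21 and 0.19 over 8 of the collecting duct, with Aqp2 at 1.34 at the low dose, and 0.04 and 0.30 over 4 of smooth muscle and juxtaglomerular cells, with Actg2 at 2.08 at the high dose. High over low dose, Col1a1 stood at -2.75, Msln at -1.94, Serpine2 at -1.90, Col3a1 at -1.82 and Actg2 at 1.27. The macrophage genes C1qb, C1qc, Cd68 and C1qa lay between -1.27 and -1.01 there. The part of any of these cells in the readings of the 8 genes was not tested.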

How the data were processed

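Kidney RNA of 3 groups was measured on 1 Agilent rat array each, on 1 slide. Per the file headers, spots were scanned at 532 nm with GenePix Pro 6.1.0.4, and the deposited intensity is the spot's pixel mean minus a background of 39 or 40 from negative controls. The signal-to-noise ratio and flag of a spot are a deposited score, and saturated pixels a deposited percent, per the file headers. Agilent Feature Extraction stands in the submitters' processing notes. The authors also deposited log2 values, scaled to a common median of 4.77, by a method not given in the sources used here; their direction and array match the scanner columns, and whether they were centred is unknown. The high-dose header names a mouse design, but its probe annotation equals that of the other files; a further high-dose array listed in the headers was not analysed here.

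Control spots, spots not found although bright (6, 5 and 6 on control, low and high dose) and spots with a pixel mean over 1.5-fold away from their pixel median (166, 139 and 80) were left out. Spots were averaged per probe, scaled to equal 75th percentiles (factors 1.15, 0.965 and 0.916), floored at 1 and put on the log2 scale. Probes were named by accession or symbol through RefSeq's GRCr8 table (18355 by accession, 2760 by current symbol, 422 by synonym, 1785 by the files' symbol), and each gene was read from the probe with the most arrays above background, and among equals the brightest. Genes with placeholder symbols were not counted. Python 3.11.15 and limma 3.58.1 (normexp) were used, and the steps were tested on simulated data.

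No test was run, since each group is 1 array of pooled RNA. The genes and lists were chosen with earlier results of these data known. Named in the text are all 8 genes, list members past 2-fold (at most 4), the highest and lowest member of each podocyte list per comparison, and the 3 genes nearest to Nphs1 and to the median of the 8. Some items that this rule names, and 1 searched motif, are not reported here. Alternatives were the background correction, scaling, the authors' values, pixel medians, spot filters, probe choice and position on the array.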

Additional observations from a re-analysis of the deposited data

How the results depend on the processing

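The direction of the 8 genes' median was kept under all 10 other settings in all 3 comparisons. Against control, normexp background correction, whose offset of 50 draws dim readings together, moved the median from its reported value to -0.16 at the low dose and -0.25 at the high dose, and pixel medians moved it to -0.28 at the low dose. The count of genes at least 1.5-fold lower at the low dose was 1 instead of 0 with the authors' values and 1 with pixel medians, in both cases Nphs1 (-0.63 and -0.66). Over all genes, the counts past 1.5-fold (higher, then lower) were 654 and 442 at the low dose, 368 and 375 at the high dose, and 409 and 560 between the doses. Without a filter on dim probes they were 1944 and 3085, 2138 and 2030, and 3063 and 1586, and under normexp 359 and 129, 156 and 106, and 107 and 290. Across all settings Nphs1 ranged from -0.66 to -0.34 at the low dose and from -0.56 to -0.40 at the high dose. Among values outside the medians and counts of the 8 genes, 23 moved by more than the spread between spots and 280 did not. Among the 8 genes, directions that turned were Podxl at the low dose (0.03 with the authors' values), Synpo at the high dose (-0.01 under normexp) and Nphs1 between the doses (-0.09 to 0.12). List medians near 0 turned too: basement membrane at the high dose (0.01) to -0.03 under normexp, -0.01 with quantile normalization, -0.01 with equal medians and -0.045 with the authors' values, slit diaphragm at the low dose (0.02) to -0.03 under normexp, and cytoskeleton between the doses (0.01) to -0.02 with equal medians. The correction for position on the array and the choice of Podxl spots were added after the data were seen. The control array had a weak corner, which held no spot of the 8 genes. No paired analysis was possible because each group holds 1 array. With 1 array per group no replicate could be left out.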

Other observations

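Plat, the tissue plasminogen activator, and Vegfa, the endothelial growth factor, are secreted by podocytes among other cells. Both were picked after their values were seen. Plat stood apart at the low dose, whereas Vegfa was lower than control on both treated arrays. Plat read 1066 with water, 1853 at the low and 1163 at the high dose, a log2 difference of 0.80 at the low dose and 0.12 at the high dose. Vegfa read 1405, 924 and 1061 on the same arrays, at -0.60 and -0.40. Clic5, a chloride channel protein of foot processes, was not above background on the control array by the signal-to-noise rule although it read 1199.5 there, so it enters the comparison between the doses alone, at -0.37. Pax2, a developmental factor of the nephron, was above background on the high-dose array alone, where it was at least 1.35-fold higher than on the control array. Ehd3, a marker of glomerular endothelium, read 34.4 with water, 19.3 at the low and 25.7 at the high dose and was not above background at the low dose.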
